A study of Homo sapiens with 10 samples.

Results

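The 10 genes examined were the immediate-early genes FOS, FOSB, FOSL1, FOSL2, JUN, JUNB, JUND, EGR1, IER3 and IER5, chosen by name from 20037 protein-coding genes. Each was followed through the peak summits listed in the gene or within 1 kb of its ends (hg38). The chromatin immunoprecipitation (ChIP-seq) libraries came from 22RV1, an established prostate cancer cell line. The 6 groups with a peak list form 3 pairs: RB1 siRNA and control siRNA, plasmids labelled HA-RB(245-255) and EV(245-255), and plasmids labelled HA-RBN and EV(RBN). A genotype field places HA-RB(245-255) in a control group, and its title, which names the construct, was followed. The labels do not explain RBN, and they do not give the times or amounts of transfection. Of the 10 samples in the series, 4 were IgG libraries and were not analysed here. Each group was 1 library of 1 cell line, so without replicates no test between conditions was possible, and every interval covers counting error only. The labels do not name the antibody, and the series title is about the co-regulator TRIM24. Peak lists carry no expression values, so the cell type could not be checked against marker genes.

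Immediate-early genes are transcribed within minutes of a growth factor or stress signal, without new protein synthesis, because the factors that switch them on are already present. FOS and JUN family proteins are basic leucine zipper proteins that pair to form the AP-1 transcription factor, EGR1 is a zinc finger transcription factor, and IER3 and IER5 are response genes that act in cell survival and heat shock signalling. The ERK kinases drive many of them through serum response factor and its ETS partners, and the phosphatase DUSP2 named in the series title acts on ERK.

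Peaks listed on chromosomes 1-22, X and Y numbered 34035 with RB1 siRNA, 20860 with control siRNA, 92479 in HA-RB(245-255), 74457 in EV(245-255), 243310 in HA-RBN and 156785 in EV(RBN). Total reads per library are unknown here. The genome-wide background, a guide to depth, in DNA fragments stacked at a position, was 0.539 with RB1 siRNA, 0.413 with control siRNA, 0.25 in HA-RB(245-255), 0.187 in EV(245-255), 0.634 in HA-RBN and 0.367 in EV(RBN). In the lists of the siRNA and 245-255 pairs, which have IgG partners, intervals were so long that they covered 92.9% to 95.7% of the chromosomes, and each interval lists 1 summit. A weaker stack of fragments elsewhere in such an interval is not listed, so a gene without a summit there is not shown to be free of the protein. The lists of the RBN pair covered 4.89% of the chromosomes in HA-RBN and 2.75% in EV(RBN).

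The promoters below are those in which summits of at least 1 library fell within the 250 bases before the gene start, for members with a summit in 5 or 6 libraries. Sequences are from RefSeq (GRCh38.p14), 5′ to 3′ on the strand of the gene. Promoter entries matched 8 members, and FOSL1 and IER3 did not match. Capitals mark matches on either strand to the AP-1 element TGANTCA, the cAMP response element TGACGTCA, the CCAAT box, the GC box GGGCGG, the TATA box TATAAA and the CArG box of serum response factor. None of these matches overlapped within the 5 sequences.
JUN (chr1:58784048-58784297, minus strand): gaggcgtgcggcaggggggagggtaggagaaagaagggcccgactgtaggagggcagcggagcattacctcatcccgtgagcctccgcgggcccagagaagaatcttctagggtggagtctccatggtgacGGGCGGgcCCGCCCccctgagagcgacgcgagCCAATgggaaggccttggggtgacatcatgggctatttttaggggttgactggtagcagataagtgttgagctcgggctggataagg
JUND (chr19:18281623-18281872, minus strand): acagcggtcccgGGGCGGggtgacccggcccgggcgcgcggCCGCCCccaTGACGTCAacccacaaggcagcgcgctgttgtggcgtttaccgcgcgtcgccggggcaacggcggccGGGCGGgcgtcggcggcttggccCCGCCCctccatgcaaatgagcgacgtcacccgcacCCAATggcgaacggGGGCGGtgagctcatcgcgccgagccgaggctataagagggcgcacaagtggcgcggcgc
FOSL2 (chr2:28392608-28392857, plus strand): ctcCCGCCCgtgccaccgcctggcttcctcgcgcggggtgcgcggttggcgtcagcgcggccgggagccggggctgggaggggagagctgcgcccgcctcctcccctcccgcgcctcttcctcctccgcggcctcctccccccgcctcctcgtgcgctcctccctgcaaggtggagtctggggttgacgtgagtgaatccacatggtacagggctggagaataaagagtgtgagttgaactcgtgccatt
EGR1 (chr5:138465229-138465478, plus strand): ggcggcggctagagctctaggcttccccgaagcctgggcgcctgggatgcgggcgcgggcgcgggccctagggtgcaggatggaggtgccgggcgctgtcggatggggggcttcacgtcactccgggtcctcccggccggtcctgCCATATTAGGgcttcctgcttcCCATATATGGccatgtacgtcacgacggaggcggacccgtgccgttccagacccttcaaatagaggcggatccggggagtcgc
IER5 (chr1:181088450-181088699, plus strand): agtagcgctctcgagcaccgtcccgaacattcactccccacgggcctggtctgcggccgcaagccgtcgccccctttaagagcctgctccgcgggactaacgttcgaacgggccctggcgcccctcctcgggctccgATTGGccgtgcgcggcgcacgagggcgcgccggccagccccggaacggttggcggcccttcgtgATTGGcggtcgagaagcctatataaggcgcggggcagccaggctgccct

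The median member promoter was richer in G and C than the median of all promoters, but JUN, with 62.0% and 14 CpG dinucleotides, was not. Over the 8 members the median was 69.0% G and C (range 62.0% to 74.8%) and 25 CpG dinucleotides, against 62.4% and 17 over 15843 promoters of protein-coding genes (chromosome 8 left out). The GC box was found in 5 of 8 member promoters, FOS, FOSB, FOSL2, JUN and JUND, and in 56.0% of all. CCAAT was found in 4 of 8, JUN, JUNB, JUND and IER5, and in 34.5% of all. TATAAA was found in FOS, FOSB and JUNB, 3 of 8, and in 9.23% of all. The CArG box was found in EGR1 alone of the 8 and in 1.14% of all, with 2 matches starting 105 and 83 bases before the gene start. TGACGTCA was found in JUND alone of the 8, starting 200 bases before the gene start, and in 2.32% of all. TGANTCA was found in 0 of 8 and in 5.04% of all. A match is a string of letters and not a bound site. Only the 250 bases before each gene start were searched, so matches farther upstream and variants of these strings were not counted.

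Summits in or near these genes were listed in 6 of 10 members with RB1 siRNA, where 51.2% of all protein-coding genes had one, and in 5 of 10 with control siRNA, where 42.3% had one. They were listed in 5 of 10 in HA-RB(245-255) (71.3% of all genes) and in 8 of 10 in EV(245-255) (71.0%). In the RBN pair they were listed in 10 of 10 in HA-RBN (91.8%) and in 8 of 10 in EV(RBN) (85.2%). Long genes hold more summits, and 9 of the 10 members are no longer than 10 kb. Among those 9, the number with a summit was 5 with RB1 siRNA, against 25.3% of the 5694 protein-coding genes of that size, and 4 with control siRNA, against 20.0%. It was 4 in HA-RB(245-255) and 7 in EV(245-255), against 40.7% in each, 9 in HA-RBN, against 76.6%, and 7 in EV(RBN), against 64.4%.

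JUN, EGR1 and FOSL2 had a summit in all 6 libraries, which held for 29.2% of all protein-coding genes and for 8.89% of those up to 10 kb. The second share applies to JUN and EGR1 only, since FOSL2 is 24460 bp long. JUND, IER5 and FOSB had one in 5 libraries (20.6% of all genes), JUNB in 3 (13.2%), and FOS, FOSL1 and IER3 in 2 (9.79%). With the strand known for 8 members, a summit lay within 1 kb of the gene start in 5 of 8 with RB1 siRNA (34.0% of 15843 genes), 5 with control siRNA (28.4%), 5 in HA-RB(245-255) (44.0%), 6 in EV(245-255) (43.7%), 6 in HA-RBN (68.2%) and 6 in EV(RBN) (53.7%). JUN, EGR1 and FOSL2 were among them in every library.

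**Figure D1:**
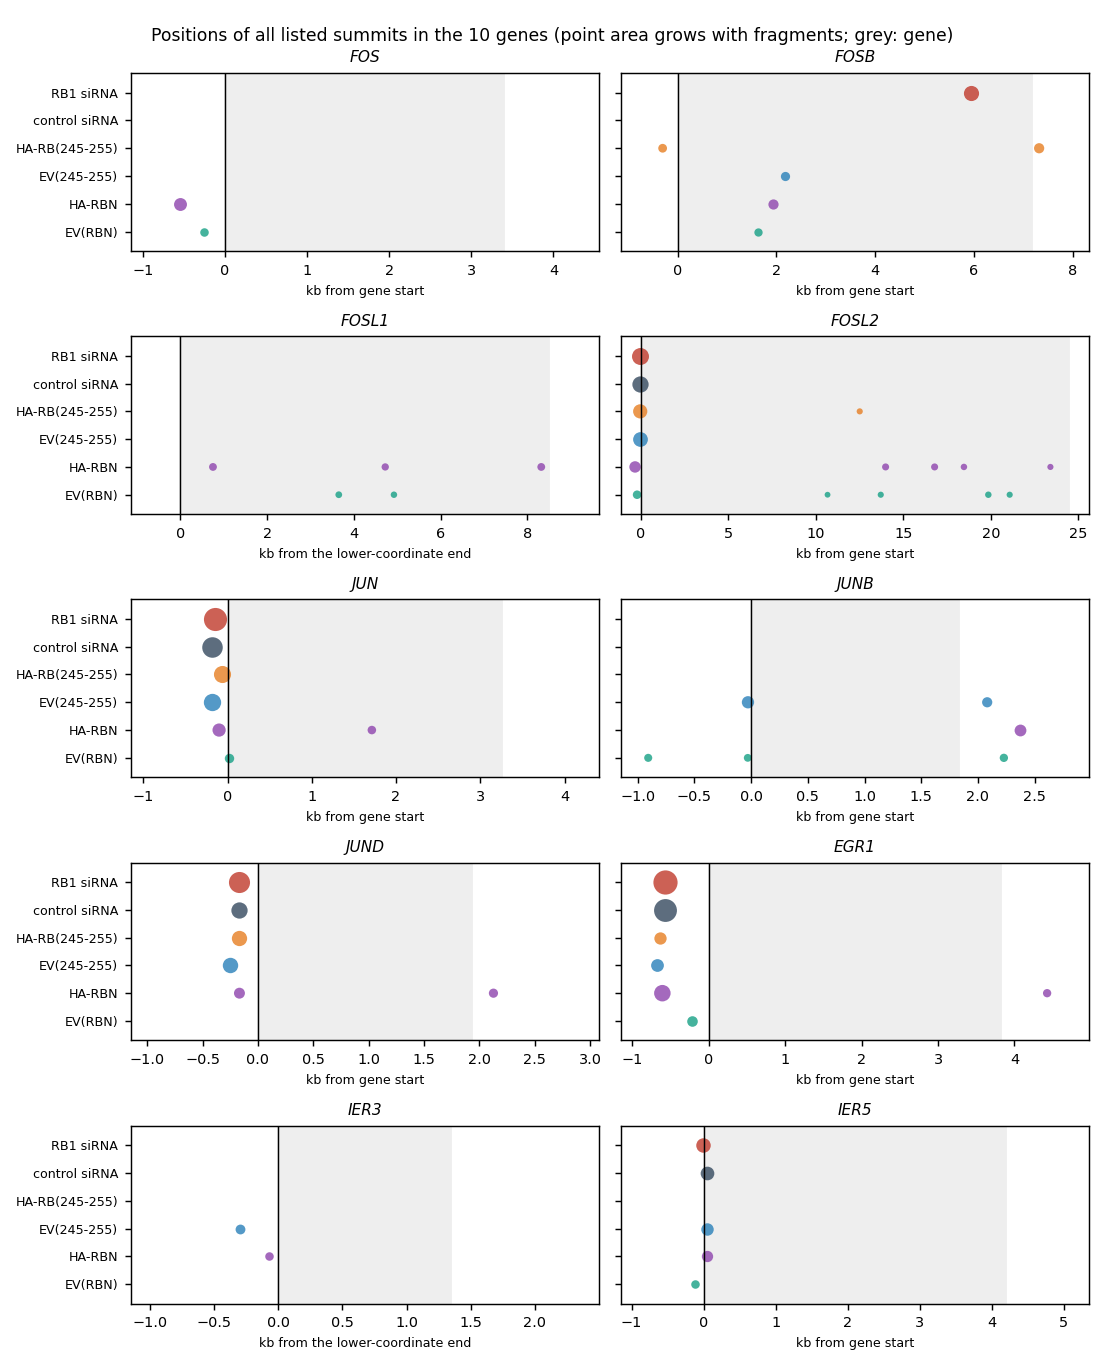
Positions of all listed summits in each gene and the 1 kb on either side, in kb from the gene start (FOSL1 and IER3: from the lower-coordinate end), with 1 row per library and point area growing with the number of fragments; the gene is shaded. The strongest summits of FOSL2, JUN, JUND, EGR1 and IER5 lie within 1 kb of the gene start, with weaker ones farther into or past FOSL2, JUN, JUND and EGR1, while those of FOSB and FOSL1 are scattered.

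The strength of a summit is given as the number of DNA fragments stacked there, recovered from the authors' fold enrichment and −log10 p-value. Over all genes with a summit the median was 21 fragments with RB1 siRNA, 20 with control siRNA, 9 in HA-RB(245-255), 9 in EV(245-255), 10 in HA-RBN and 5 in EV(RBN). Over the members with a summit it was 87 with RB1 siRNA, 61 with control siRNA, 45 in HA-RB(245-255), 34 in EV(245-255), 26.5 in HA-RBN and 12 in EV(RBN). Members above the median of genes numbered 6 of 6 with RB1 siRNA, 5 of 5 with control siRNA, 5 of 5 in HA-RB(245-255), 8 of 8 in EV(245-255), 9 of 10 in HA-RBN and 7 of 8 in EV(RBN). The exceptions were FOSL1 in HA-RBN, with 9 fragments, and FOSL1 in EV(RBN), with 5. The medians of all genes and the percentiles below cover genes of all lengths, and none was taken over genes up to 10 kb. Genes whose strongest summits lay within 500 bp in both libraries of a pair had higher medians, 37 with RB1 siRNA and 29 with control siRNA. Those medians were 16 in HA-RB(245-255), 16 in EV(245-255), 19 in HA-RBN and 7 in EV(RBN). The rank of the members among genes of their length is therefore not shown.

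**Figure D2:**
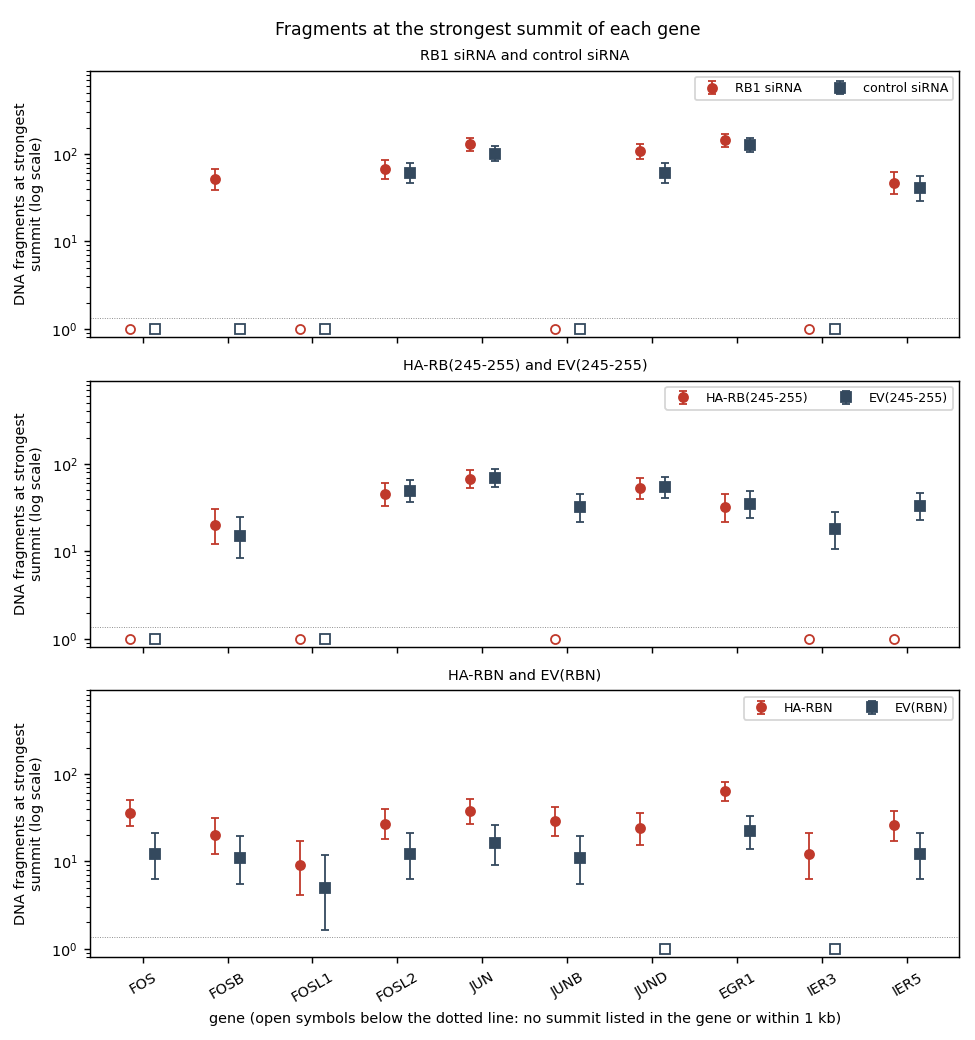
DNA fragments at the strongest summit of each gene (log axis) in the 3 pairs, with exact Poisson 95% intervals; open symbols under the dotted line mark genes with no summit listed. EGR1 and JUN are the highest members in the siRNA pair, at 101 to 143 fragments, and FOSL1 is the lowest in the RBN pair.

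JUN encodes the AP-1 subunit c-Jun, from an intronless gene on chromosome 1 from 58780791 to 58784047. Its summit held 130 fragments with RB1 siRNA, 101 with control siRNA, 68 in HA-RB(245-255), 70 in EV(245-255), 38 in HA-RBN and 16 in EV(RBN). The summits lay 146 bp (RB1 siRNA), 183 bp (control siRNA), 69 bp (HA-RB(245-255)), 184 bp (EV(245-255)) and 100 bp (HA-RBN) before the gene start and 12 bp after it (EV(RBN)), a spread of 196 bp. Apart from EV(RBN) all of them fell inside the JUN sequence printed above, where the GC boxes start 119 and 111 bases and CCAAT starts 87 bases before the gene start. Among genes with a summit JUN stood at percentile 96.1 with RB1 siRNA, 94.1 with control siRNA, 98.1 in HA-RB(245-255), 98.0 in EV(245-255), 91.1 in HA-RBN and 92.8 in EV(RBN). Its peaks were long in the RBN pair, 2000 bp in HA-RBN and 1967 bp in EV(RBN), at percentiles 96.6 and 98.6 of the peaks at the strongest summits of genes. A second HA-RBN summit of 12 fragments lay 1713 bp after the start.

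EGR1, on chromosome 5 from 138465479 to 138469303, encodes a zinc finger factor that ERK signalling induces. Its summit held 143 fragments with RB1 siRNA, 127 with control siRNA, 32 in HA-RB(245-255), 35 in EV(245-255), 63 in HA-RBN and 22 in EV(RBN). The summits lay before the start by 572 bp (RB1 siRNA), 577 bp (control siRNA), 631 bp (HA-RB(245-255)), 673 bp (EV(245-255)), 606 bp (HA-RBN) and 212 bp (EV(RBN)). Outside EV(RBN) the summits therefore lay upstream of the printed EGR1 sequence and its CArG boxes. The peaks around these summits still reached across the CArG boxes, that of HA-RBN running from 138464142 to 138465449. HA-RBN also listed 11 fragments 603 bp past the far end. Within each library of the RBN pair EGR1 carried the highest −log10 q-value of the member summits, 29.2 in HA-RBN and 9.56 in EV(RBN).

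The order of EGR1 and JUN differed between experiments. EGR1 held 1.1 times the fragments of JUN with RB1 siRNA (95% interval 0.861 to 1.41) and 1.26 times with control siRNA (0.961 to 1.65). It held 0.471 times those of JUN in HA-RB(245-255) (0.299 to 0.726) and 0.5 times in EV(245-255) (0.323 to 0.761). It held 1.66 times in HA-RBN (1.09 to 2.55) and 1.38 times in EV(RBN) (0.690 to 2.80). Both libraries of the 245-255 pair were thus below an equal number, in intervals that cover counting error only, and the libraries of the other pairs were not. The percentile of EGR1 among genes with a summit was 96.9 with RB1 siRNA, 96.4 with control siRNA, 88.7 in HA-RB(245-255), 89.9 in EV(245-255), 96.8 in HA-RBN and 96.4 in EV(RBN). The ratio was picked after the values were seen, and experiment, plasmid and any difference in handling cannot be told apart.

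JUND encodes an AP-1 subunit that most cells express without a stimulus, on chromosome 19 from 18279694 to 18281622. Its summit held 107 fragments with RB1 siRNA, 61 with control siRNA, 53 in HA-RB(245-255), 54 in EV(245-255) and 24 in HA-RBN. It lay before the start by 173 bp (RB1 siRNA), 169 bp (control siRNA), 170 bp (HA-RB(245-255)), 249 bp (EV(245-255)) and 167 bp (HA-RBN), so the 4 libraries other than EV(245-255) placed it within 6 bp. In the printed JUND sequence TGACGTCA starts 200 bases before the start. EV(RBN) listed no interval within 1 kb of the gene, and its nearest summit, of 8 fragments, lay 3643 bp outside. HA-RBN also listed 15 fragments 199 bp beyond the other end of the gene.

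JUNB, which encodes a c-Jun relative of weaker transforming activity, lies on chromosome 19 from 12791486 to 12793315 and its start overlaps HOOK2. Around it the 1 kb limit decided the count. Just inside the limit EV(RBN) listed 10 fragments 908 bp before the start. Just outside it HA-RB(245-255) listed 32 fragments 1103 bp before the start, RB1 siRNA listed 88 fragments 1208 bp before it, and HA-RBN listed 43 fragments 1274 bp before it. At the start itself EV(245-255) held 32 fragments, 28 bp upstream, and EV(RBN) held 9 fragments, 30 bp upstream. Beyond the far end of the gene HA-RBN held 29 fragments, EV(RBN) held 11 and EV(245-255) held 20, at 541, 400 and 253 bp past the end. JUNB thus had fragments on both sides in the RBN pair, and its absence from the RB1 siRNA and HA-RB(245-255) counts rests on the limit. With control siRNA the interval that spans JUNB has its summit of 135 fragments 16213 bp before the start, inside HOOK2. A summit near that place was listed in all 6 libraries, with 169 fragments with RB1 siRNA, 135 with control siRNA, 44 in HA-RB(245-255), 47 in EV(245-255), 64 in HA-RBN and 15 in EV(RBN). These summits ran from 12775116 to 12775751, joined where neighbours lay up to 500 bp apart, so they need not be 1 site.

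FOSL2, on chromosome 2 from 28392858 to 28417317, encodes FRA2, a FOS relative without the transactivation domain of FOS. Its summit held 67 fragments with RB1 siRNA, 61 with control siRNA, 45 in HA-RB(245-255), 49 in EV(245-255), 27 in HA-RBN and 12 in EV(RBN). With RB1 siRNA, with control siRNA, in HA-RB(245-255) and in EV(245-255) the summit lay 38 or 39 bp before the start, a spread of 1 bp, which is the tightest of the members with 4 such summits. In the RBN pair it lay 333 bp (HA-RBN) and 218 bp (EV(RBN)) before the start. The rest of the gene held low summits, with 3 fragments in HA-RB(245-255) and 2 to 6 fragments at 4 summits in each library of the RBN pair. The FOSL2-AS1 transcript overlaps this start, so the summit cannot be assigned to FOSL2 alone.

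FOSB lies on chromosome 19 from 45467996 to 45475179 and encodes a FOS relative whose short splice form accumulates in stimulated neurons. Its strongest summit held 52 fragments with RB1 siRNA, 5953 bp after the start. It held 20 fragments in HA-RB(245-255), 141 bp past the far end, and 15 in EV(245-255), 2182 bp after the start. It held 20 fragments in HA-RBN, 1932 bp after the start, and 11 in EV(RBN), 1627 bp after the start. No library with a strongest summit at FOSB had it at the gene start, and the positions spread over 5697 bp. HA-RB(245-255) listed a weaker summit of 13 fragments 302 bp before the start. With control siRNA no interval reached the gene.

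FOS itself, on chromosome 14 from 75278828 to 75282230, had summits at its start only in the RBN pair, with 36 fragments in HA-RBN, 547 bp before the start, and 12 in EV(RBN), 262 bp before it. These peaks were long, 1718 bp in HA-RBN and 1500 bp in EV(RBN). In the other 4 libraries an interval reached FOS, but its listed summit lay far upstream. That summit held 112 fragments with RB1 siRNA, 19649 bp before the start, and 79 with control siRNA, 19693 bp before it. It held 50 in HA-RB(245-255) and 50 in EV(245-255), 19686 and 19641 bp before the start. The RBN pair listed the same place as a peak of its own, with 20 fragments in HA-RBN, 19642 bp before the start, and 12 in EV(RBN), 19438 bp before it. The upstream site was therefore listed in all 6 libraries within 255 bp, from 75259135 to 75259390, and no end of a protein-coding gene lies closer to it than FOS. On the other side of the gene, RB1 siRNA, HA-RB(245-255) and HA-RBN listed 44, 31 and 16 fragments within 78 bp of each other, 11915, 11880 and 11837 bp past the far end. Which gene these places act on, if any, cannot be read from peak lists.

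**Figure D3:**
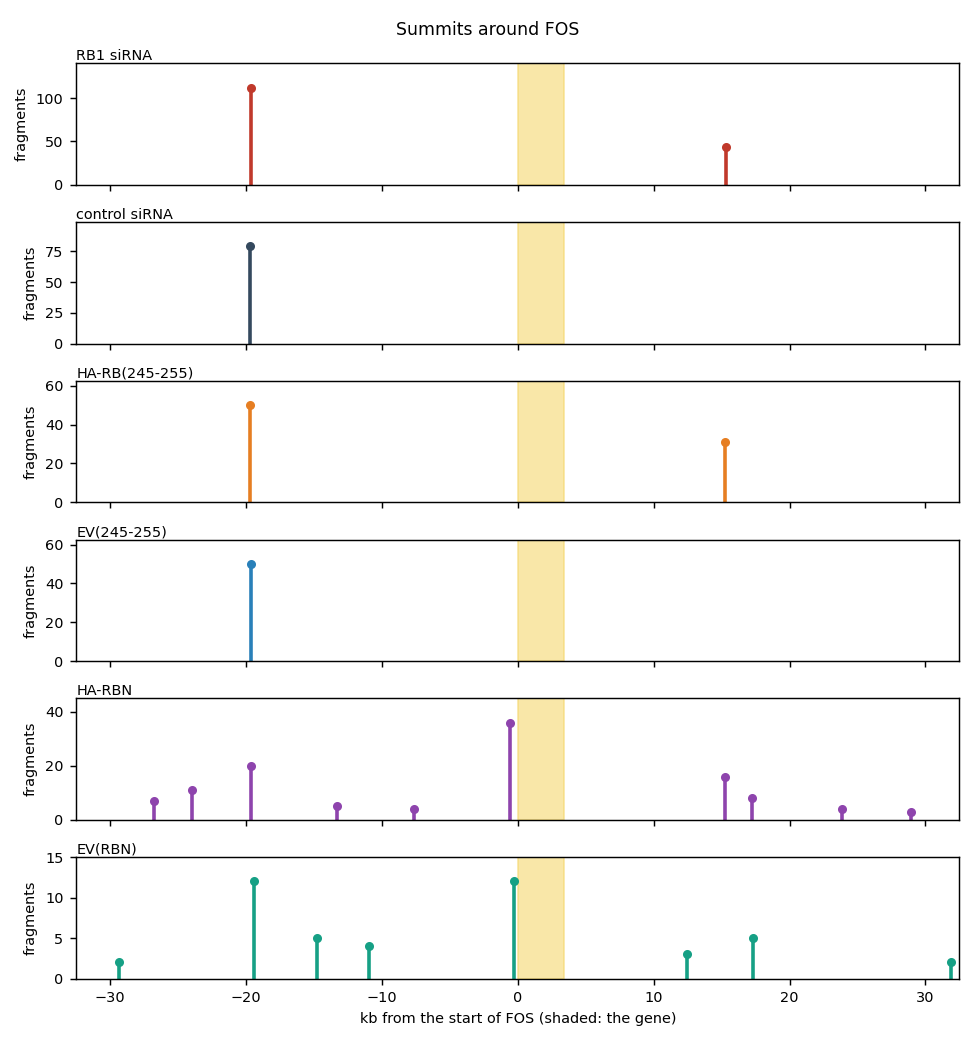
Fragments at every summit listed from 30 kb before to 30 kb past FOS, by distance from the gene start in kb, with 1 panel per library and its own linear axis from 0. The site near 20 kb upstream stands in all 6 panels, at 112, 79, 50, 50, 20 and 12 fragments from the top, whereas the summit at the start is listed in HA-RBN and EV(RBN).

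FOSL1, on chromosome 11 from 65892049 to 65900545, encodes FRA1, a FOS relative linked to invasive tumour cells. It was the weakest member, with a strongest summit of 9 fragments in HA-RBN, 177 bp inside its upper end, and of 5 in EV(RBN), 4846 bp inside that end. HA-RBN listed 9 fragments at another place too, 749 bp above the lower end, and the summit of higher fold enrichment was taken. The remaining HA-RBN summit, of 7 fragments, lay 201 bp from the weaker EV(RBN) summit, of 4. In the 4 lists with IgG partners an interval of 35703 to 392961 bp spanned the gene with its summit at a neighbour, near DRAP1 with RB1 siRNA and near MUS81 in the other 3.

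IER5, on chromosome 1 from 181088700 to 181092900, encodes a regulator of heat shock factor. Its summit held 47 fragments with RB1 siRNA, 41 with control siRNA, 33 in EV(245-255), 26 in HA-RBN and 12 in EV(RBN). Its position was 3 bp before the start with RB1 siRNA and 52, 46 and 51 bp after it with control siRNA, in EV(245-255) and in HA-RBN. In EV(RBN) it lay 121 bp before the start. HA-RB(245-255) had no interval within 1 kb, and its nearest summit, of 15 fragments, lay 12556 bp past the gene. That library's intervals covered 92.9% of the chromosomes, and the part of a gap in coverage in this difference from EV(245-255) was not tested. IER3, a regulator of apoptosis on chromosome 6 from 30743199 to 30744547, had 12 fragments in HA-RBN, 75 bp below its lower end, and 18 in EV(245-255), 297 bp below it. FLOT1 and IER3-AS1 lie at that end. The HA-RBN summit had a fold enrichment of 6.14 over a local background of 1.12 fragments. EV(RBN) listed nothing at IER3, and the other 3 libraries had an interval over the gene with its summit elsewhere, near MDC1 with RB1 siRNA and in HA-RB(245-255) and near CCHCR1 with control siRNA.

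In the authors' scoring, 7 member summits reached a −log10 q-value of 5 in HA-RBN, at FOS, FOSL2, JUN, JUND, EGR1, IER3 and IER5. In EV(RBN) 3 did, at JUN, EGR1 and IER5. Of the 27 member summits in the 4 lists with IgG partners, 0 did. The lists were scaled differently, so these scores were not compared between the RBN pair and the other pairs. The share of all genes reaching this score was not counted, so these counts are not shown to be particular to the members.

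For each pair, fragments were compared at genes whose strongest summits lay within 500 bp of each other, as a log2 ratio relative to the median of all such genes. A value past 1 on this scale is past 2-fold. No member was past 2-fold in any pair. The siRNA pair sets cells given RB1 siRNA against cells given control siRNA, and the knockdown itself could not be checked in peak lists. A summit in both libraries was listed for 33.0% of all genes and 5 of 10 members, and a shared one for 24.2% and 5 of 10. Of the 4856 genes with a shared summit, 2.84% were past 2-fold, 1.81% higher and 1.03% lower, and of 5 members 0 were. JUND had 107 fragments with RB1 siRNA (87.7 to 129) and 61 with control siRNA (46.7 to 78.4). Its relative log2 ratio was 0.55 (95% interval 0.08 to 1.03), at percentile 91.5 of all genes. JUND was the 1 member of 5 whose interval excluded the median, which the intervals of 6.73% of all genes did. JUN had 0.10 (−0.29 to 0.49), IER5 −0.07 (−0.70 to 0.57), EGR1 −0.09 (−0.45 to 0.26) and FOSL2 −0.13 (−0.65 to 0.40). The median of these 5 members was −0.07, against 0 over all genes by construction. A summit with RB1 siRNA only was listed for 1 of 10 members, FOSB, and for 18.2% of all genes, and one with control siRNA only for 0 of 10 and 9.32%. FOS, FOSL1, JUNB and IER3 had none in either.

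The 245-255 pair sets cells with the RB fragment against their control plasmid. A summit in both libraries was listed for 59.9% of all genes and 5 of 10 members, and a shared one for 34.3% and 4 of 10. FOSL2 had 45 fragments in HA-RB(245-255) and 49 in EV(245-255), and JUN had 68 in HA-RB(245-255) and 70 in EV(245-255). JUND had 53 in HA-RB(245-255) and 54 in EV(245-255), and EGR1 had 32 in HA-RB(245-255) and 35 in EV(245-255). Their relative log2 ratios were −0.12 (−0.74 to 0.49), −0.04 (−0.54 to 0.46), −0.03 (−0.60 to 0.55) and −0.13 (−0.87 to 0.60). Past 2-fold were 0 of 4, against 4.04% of 6863 genes, 1.66% higher and 2.38% lower. The interval excluded the median for 0 of 4, against 3.12% of genes. FOSB had summits in both libraries, but 5142 bp apart. A summit in HA-RB(245-255) only was listed for 0 of 10 members and 11.3% of all genes. A summit in EV(245-255) only was listed for 3 of 10, JUNB, IER3 and IER5, and for 11.1% of all genes.

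The RBN pair sets cells with the RBN plasmid against their control plasmid. A summit in both libraries was listed for 82.9% of all genes and 8 of 10 members, and a shared one for 40.4% and 7 of 10. HA-RBN held more fragments than EV(RBN) at all 7 shared members, and so did genes at large, with a median of 19 in HA-RBN and 7 in EV(RBN) over 8094 genes. Relative to that median FOS had 0.30 (−0.67 to 1.38), EGR1 0.24 (−0.48 to 1.01) and JUNB 0.12 (−0.93 to 1.27). JUN had −0.03 (−0.91 to 0.91), FOSL2 −0.11 (−1.14 to 1.01), IER5 −0.16 (−1.20 to 0.96) and FOSB −0.42 (−1.55 to 0.79). Past 2-fold were 0 of 7, against 10.1% of genes, 4.34% higher and 5.77% lower, and the interval excluded the median for 0 of 7, against 4.63% of genes. JUNB is compared here at its far end. The strongest summits of FOSL1 lay 4669 bp apart. A summit in HA-RBN only was listed for 2 of 10 members, JUND and IER3, and for 8.85% of all genes, and one in EV(RBN) only for 0 of 10 and 2.28%.

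**Figure D4:**
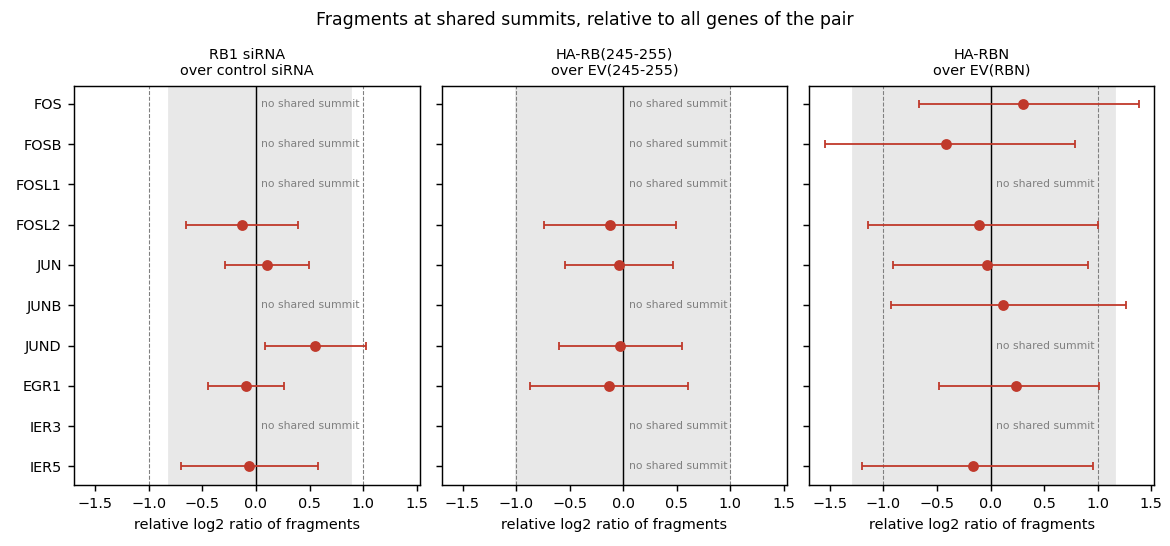
Relative log2 ratio of fragments, condition over control, for members with a shared summit in each pair, with 95% counting intervals; the grey band holds the middle 95% of all genes with a shared summit and dashed lines mark 2-fold. All members lie inside the band, and the JUND interval in the siRNA pair is the one that leaves 0 out.

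The direction of these ratios depended on the scale. Set against the genome-wide background of each library, the median of all shared genes was −0.12 in the siRNA pair, −0.42 in the 245-255 pair and 0.49 in the RBN pair. On that scale 1 of 5 members lay above 0 in the siRNA pair, 0 of 4 in the 245-255 pair and 7 of 7 in the RBN pair, whereas relative to all genes the numbers were 2 of 5, 0 of 4 and 3 of 7. The change of scale moves every gene of a pair by the same amount, so these counts say nothing particular to the members. On the genome-wide scale JUND stood at 0.43 in the siRNA pair (−0.04 to 0.91), an interval that includes 0. EGR1 stood at 0.73 in the RBN pair (0.01 to 1.5), an interval that excludes 0. The share of all genes whose interval excludes 0 on this scale was not counted, so the EGR1 value is not shown to be particular to it. The 2 EGR1 summits lay 394 bp apart and were not compared under the 200 bp distance.

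Related genes were described from 3 lists. Among 39 other immediate-early genes, a summit was listed in 26 with RB1 siRNA (51.2% of all genes) and 30 with control siRNA (42.3%). It was listed in 29 in HA-RB(245-255) (71.3%) and 27 in EV(245-255) (71.0%), and in 37 in HA-RBN (91.8%) and 36 in EV(RBN) (85.2%). Their median relative log2 ratio was 0.18 over 21 shared genes in the siRNA pair, −0.16 over 15 in the 245-255 pair and 0.19 over 26 in the RBN pair, against 0 over all genes. Past 2-fold were 1 of 21, 0 of 15 and 1 of 26, all higher, against 2.84%, 4.04% and 10.1% of all genes in either direction. KLF4, a stem cell zinc finger factor, had 67 fragments with RB1 siRNA and 21 with control siRNA, a relative log2 ratio of 1.41 (0.69 to 2.19). ZFP36L1, which destabilises mRNAs, had 16 with RB1 siRNA and 26 with control siRNA, at −0.96 (−1.96 to −0.01). SIK1 had 21 fragments in HA-RB(245-255) and 35 in EV(245-255), at −0.74 (−1.59 to 0.08). The kinase gene PLK3 had 81 in HA-RBN and 18 in EV(RBN), at 0.89 (0.14 to 1.71).

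Among 18 other AP-1 and leucine zipper partners, the median relative log2 ratio was 0.07 over 7 shared genes in the siRNA pair. It was −0.14 over 10 in the 245-255 pair and 0.08 over 12 in the RBN pair. Past 2-fold were 0, 1 and 0, against the same shares of all genes. The 1 in the 245-255 pair was higher and is not named, having fewer than 10 fragments in a library. BATF3 had 34 fragments with RB1 siRNA and 16 with control siRNA, at 0.82 (−0.07 to 1.78), ATF2 had 17 in HA-RB(245-255) and 24 in EV(245-255), at −0.50 (−1.49 to 0.46), and NFE2L1 had 56 in HA-RBN and 14 in EV(RBN), at 0.72 (−0.14 to 1.68). Among 20 kinases and factors that act upstream of immediate-early genes, the medians were 0.02 over 6, −0.01 over 14 and −0.25 over 6. Past 2-fold were 0, 1 and 2, against the same shares. The 1 in the 245-255 pair was higher, again with fewer than 10 fragments in a library. The 2 in the RBN pair were lower. The kinase gene RPS6KA5 had 156 fragments with RB1 siRNA and 94 with control siRNA, at 0.47 (0.09 to 0.85). MAPK8, which encodes the JUN kinase JNK1, had 12 in HA-RB(245-255) and 24 in EV(245-255), at −1.0 (−2.13 to 0.06). That value is at the 2-fold limit and was not counted as past it. The ERK-activated kinase gene RPS6KA4 had 17 in HA-RBN and 17 in EV(RBN), at −1.28 (−2.34 to −0.22).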

How the data were processed

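The deposited peak lists of 6 immunoprecipitated libraries were used. MACS2 2.1.0, Bowtie 1.1.2, Trimmomatic 0.33, bcl2fastq 2.17 and the hg38 build are named in the submitters' processing notes, with no role or order. Peaks were listed per library, without a header. The deposited columns hold, per peak, the authors' score (not used), fold enrichment at the summit (a ratio), −log10 p-value and −log10 q-value. Caller settings and total reads are not stated in those notes. The lists have no p-value between conditions.

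Fragments at each summit were recovered from MACS2's formulas, fold = (pileup + 1)/(background + 1) and p as the Poisson tail at that pileup. In the 4 lists with an IgG partner pileups came in steps of 0.0176, 0.0166, 0.0512 and 0.0434, taken as 1 scaled fragment; in the RBN pair they were whole. Values within 0.02 fragments (0.002 in the RBN pair) of a whole number were accepted. Where several solutions existed the lowest background was taken, which applied to 3 of 42 strongest member summits. Unsolved summits numbered 1 to 39 per list, 0 of them at members. The recovery was tested on simulated data.

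The strongest summit of each gene was the one with most fragments, in the gene or within 1 kb (RefSeq, GRCh38.p14). Ratios carry exact binomial and fragment numbers exact Poisson 95% intervals. All 10 members are named, and from each further list the gene per pair with the largest ratio in either direction among those with at least 10 fragments in both libraries, plus ZFP36L1, the next in its list. Members and lists were chosen with earlier results of these data known. Chromosome 8 genes other than ARC were left out of the list of other immediate-early genes. Python 3.11.15, numpy 2.4.6, pandas 2.3.3, scipy 1.17.1 and matplotlib 3.10.9 were used.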

Additional observations from a re-analysis of the deposited data

How the results depend on the processing

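The alternatives were windows of 500 bp and 2 kb, distances of 200 bp, 1000 bp and any distance, at least 10 fragments, peaks with −log10 q of at least 5, lists of the same length, and ratios to the median or the genome-wide background. The genome-wide scale and the 2 kb window with any distance were added after the data were seen. With −log10 q of at least 5, members with a summit numbered 0 with RB1 siRNA, 0 with control siRNA, 0 in HA-RB(245-255), 0 in EV(245-255) and 3 in EV(RBN), and shared summits 0, 0 and 3 in the siRNA, 245-255 and RBN pairs. No share of all genes was counted at that cut. Shared summits in the RBN pair numbered 4 with the 500 bp window and 4 with the 200 bp distance. Against the median background, 4 members of the 245-255 pair were past 2-fold, with a median of −1.16, and 1 member of the RBN pair was. That background was 0.396 fragments in HA-RB(245-255), above its genome-wide 0.25, and the median of all genes moved to −1.08 with it. On the genome-wide scale the member median of the 245-255 pair was −0.50. Of the other comparisons of counts and medians, 100 stayed within 1.5 times the count or inside an interval. For medians that interval ran between the medians of the members' own lower and upper limits, which is wide. In the RBN pair it ran from −0.93 to 1.01, so the member median of 0.71 against the median background counted as inside. Single-gene ratios stayed inside their intervals in 133 cases and moved out in 4, all in the 245-255 pair against the median background. Most of these settings keep both fragment numbers of a gene and at most move the median. The 133 cases are therefore no test of how stable the ratios are. No paired analysis was possible because each group is 1 library and the labels give no replicate numbers. Depth limits single values: 12 fragments in EV(RBN) carry an interval of 6.20 to 21.0.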

Other observations

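Places near members but outside the 1 kb limit were listed in 5 or 6 libraries within 30 kb of FOS, FOSL1, JUNB, IER3 and IER5, when summits up to 500 bp apart were joined. This was looked for after the FOS summits were seen. The share of all genes with such a place within 30 kb was not counted, so the places are not shown to be particular to the members. The site 16617 bp past the start of IER5 held 38 fragments with RB1 siRNA, 15 in HA-RB(245-255), 14 in EV(245-255), 11 in HA-RBN and 5 in EV(RBN), over a span from 181104549 to 181105547, and control siRNA listed none there. The sites near FOSL1 and IER3 lie 178 bp from an end of DRAP1 and 239 bp from an end of MDC1. The IER3 site held 81 fragments with RB1 siRNA, 94 with control siRNA, 31 in HA-RB(245-255), 41 in EV(245-255), 26 in HA-RBN and 3 in EV(RBN).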
